A study of Mus musculus with 10 samples.

Results

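The genes described are those of the aminoacyl-tRNA synthetases, the enzymes that join each amino acid to its transfer RNA. They were chosen by name, as every probe set carrying a single symbol built from an amino acid letter and "ars", with no suffix or the suffix 1 or 2, together with Eprs, Farsa and Farsb. This gave 35 probe sets for 34 genes, of 22180 genes on the array with a symbol of their own; 18 of the genes encode cytosolic enzymes and 16, marked by the suffix 2, mitochondrial ones. Nars2 had 2 probe sets, and the brighter was used. Aars is not analysed here, because the one probe set that carries its symbol also carries that of Exosc6.

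RNA was taken from 5 samples of Zbtb4 knock-out and 5 of wild-type mouse embryonic fibroblasts, primary connective tissue cells grown from the skin of the back of E13.5 mouse embryos. Zbtb4, a zinc finger factor, recognises methylated DNA, and the arrays were made to find the transcripts that depend on it. Total RNA was labelled with biotin and hybridised to Affymetrix arrays, 1 array per sample. The labels give no strain, sex, passage or batch, do not say which part of Zbtb4 was deleted, and leave unsaid whether each sample had its own embryo. The p-values therefore reflect the spread among the 10 samples, which may be partly technical.

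Aminoacyl-tRNA synthetases set the accuracy of translation, because the ribosome does not check which amino acid a tRNA carries. Most amino acids have one enzyme for the cytosol and another, encoded by a separate nuclear gene, for mitochondria. Kars and Gars each supply both compartments from one gene, and mitochondria make glutaminyl-tRNA indirectly, by charging with Ears2 and then amidation. Several cytosolic enzymes are held in a multisynthetase complex, and many cytosolic synthetase genes, unlike most mitochondrial ones, are induced by the transcription factor Atf4 when amino acids run short.

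The arrays had similar medians over all probe sets, from 3.89 to 3.93, and any pair correlated with r of 0.989 or more across genes. Upper quartiles spread more, from 5.83 (array 5) to 5.96 (array 1) on the knock-out arrays and from 5.88 to 5.92 on the wild-type arrays. All 12 fibroblast markers examined lay above the gene median of every array, against 4 of 10 macrophage and leukocyte markers and 1 of 8 endothelial markers. Zbtb4 itself gave log2 values of 5.44, 5.76, 5.04, 5.62 and 5.39 on the knock-out arrays, against 6.06, 6.03, 5.93, 6.23 and 6.11 on the wild-type arrays. The groups did not overlap, and the log2 difference, knock-out minus wild type, was -0.62 ± 0.12 (SE; exact two-sided permutation p = 0.00794, the smallest that 5 against 5 arrays can give; limma adjusted p over all genes = 0.628). Whether the probe set lies inside the deleted part of the gene is not known, and the source of the remaining signal was not tested.

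No synthetase gene passed the test between genotypes. By limma, 0 of 34 members had an adjusted p under 0.05, as had 0 of all 22180 genes (0%), and the adjusted p-values of the members ran from 0.83 to 0.998. The number with an unadjusted p under 0.05 was 1, Cars, against 5.98% of all genes; Cars had the lower mean in knock-out cells, as had 2.73% of all genes at that threshold. In none of the 34 genes did the knock-out arrays lie wholly apart from the wild-type arrays, as they did in 0.987% of all genes. The differences were small in every member, from -0.20 for Qars to 0.059 for Wars2, and the 95% intervals of all 34 lay between -0.42 and 0.30, so that they reached no further than 1.34-fold lower and 1.23-fold higher in knock-out cells.

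**Figure D1:**
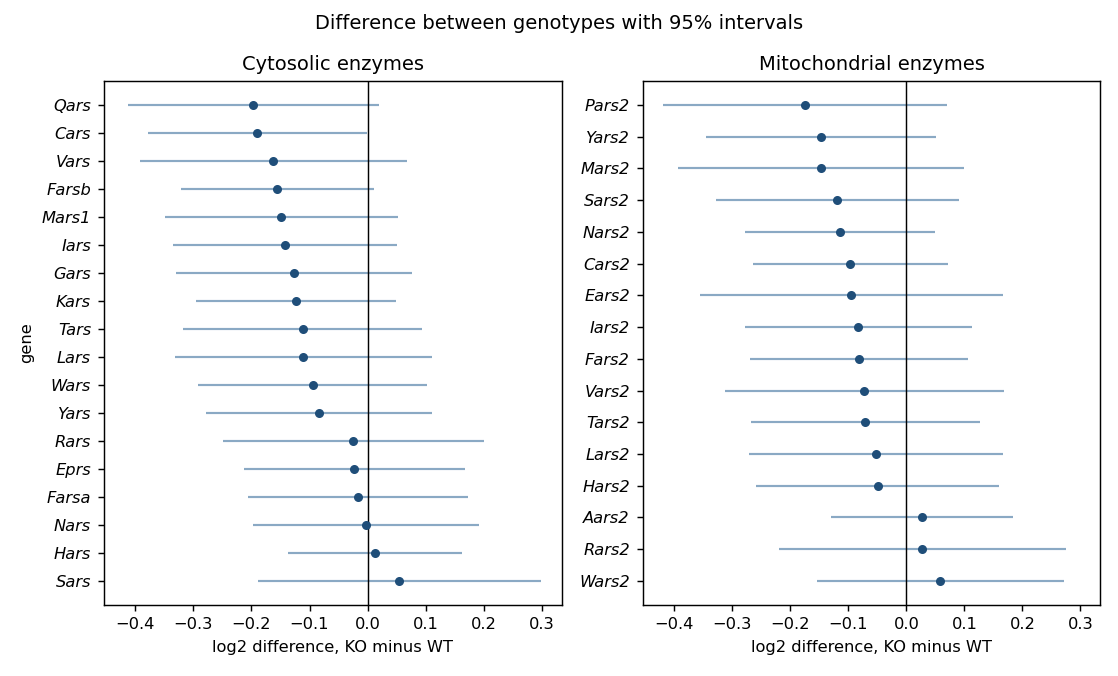
Log2 difference between genotypes, knock-out minus wild type, for 18 cytosolic (left) and 16 mitochondrial (right) synthetase genes; points are differences of the means of 5 and 5 arrays, and bars are 95% intervals from limma, not adjusted for the number of genes. Only the interval of Cars, from -0.38 to -0.0017, leaves out 0, and no interval goes below -0.42 or above 0.30.

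Most members nevertheless had a lower mean in knock-out cells. Among cytosolic enzymes, 16 of 18 means were lower and 2 higher, with a median log2 difference of -0.11, and among mitochondrial enzymes 13 of 16 were lower and 3 higher, with a median of -0.082. Over all 22180 genes, 49.3% had a lower mean and the median difference was 0.0020. These counts come from the same 10 arrays, and for the cytosolic enzymes they rest in large part on 1 array: without knock-out array 2, 13 of 18 had a lower mean and the median was -0.044. The mitochondrial genes, without the same array, had 14 of 16 lower means and a median of -0.10, whereas without knock-out array 5 they had 11 of 16 and -0.055. Class I enzymes, whose catalytic domain is a Rossmann fold, numbered 17 lower and 2 higher with a median of -0.095 (Eprs, which also holds a class II part for proline, was counted here). Class II enzymes numbered 12 lower and 3 higher, with a median of -0.082, which lay between -0.054 and -0.046 when knock-out array 2, knock-out array 5 or wild-type array 5 was left out.

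Among cytosolic enzymes, the cysteinyl enzyme gene Cars had values of 7.63, 7.25, 7.50, 7.64 and 7.46 on the knock-out arrays, against 7.63, 7.80, 7.73, 7.68 and 7.58 on the wild-type arrays. Knock-out arrays 2, 3 and 5 lay below every wild-type array, while arrays 1 and 4 lay among them. Cars differed by -0.19 ± 0.087 (SE; limma adjusted p = 0.83; exact permutation p = 0.0476), and it was -0.13 without knock-out array 2.

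Qars, the glutaminyl enzyme of the multisynthetase complex, had values of 6.24, 6.02, 6.09, 6.47 and 6.05 in knock-out cells, against 6.21, 6.33, 6.37, 6.37 and 6.57 in wild-type cells. It had the largest difference of any member, -0.20 ± 0.10 (SE), but knock-out array 4 stood above all wild-type arrays except array 5 (limma adjusted p = 0.839). The valyl enzyme gene Vars had values of 6.99, 6.57, 6.91, 6.79 and 6.60 in knock-out cells, against 6.84, 7.12, 6.99, 7.03 and 6.69 in wild-type cells. The groups overlapped over most of their range, with a difference of -0.16 ± 0.11 (SE; limma adjusted p = 0.847). Farsb, the beta subunit of the cytosolic phenylalanyl enzyme, differed by -0.16, with 3 knock-out arrays below all wild-type arrays (limma adjusted p = 0.834), whereas its partner subunit Farsa differed by -0.017.

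At the other end, the asparaginyl enzyme gene Nars had values of 10.11, 9.70, 10.07, 9.97 and 9.85 in knock-out cells, against 9.95, 9.94, 9.86, 10.09 and 9.88 in wild-type cells, a difference of -0.0027 ± 0.090 (SE). The histidyl enzyme gene Hars had the narrowest spread of the cytosolic members, with 7.93, 7.85, 7.99, 7.84 and 7.92 in knock-out cells, against 7.89, 7.77, 7.93, 7.92 and 7.96 in wild-type cells. Its difference was 0.013 ± 0.069 (SE), and the sign of both turned when single arrays were left out. The seryl enzyme gene Sars varied most within genotype among cytosolic members, with 9.77, 9.16, 9.42, 9.80 and 9.51 in knock-out cells, against 9.53, 9.53, 9.42, 9.49 and 9.42 in wild-type cells. Knock-out arrays thus held both its lowest and its highest values, while the wild-type arrays lay close together. Its difference was 0.054 ± 0.11 (SE), or 0.15 without knock-out array 2.

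The 7 measured enzymes of the multisynthetase complex, Eprs, Iars, Kars, Lars, Mars1, Qars and Rars, all had lower means in knock-out cells, from -0.20 for Qars to -0.023 for Eprs, with a median of -0.12. None passed the test, and 5 of the 7 had their lowest value on knock-out array 2, without which Eprs differed by 0.038 and Rars by 0.052. Iars, the isoleucyl enzyme gene, differed by -0.14, the methionyl enzyme gene Mars1 by -0.15, the lysyl enzyme gene Kars by -0.12 and the leucyl enzyme gene Lars by -0.11. Of the non-enzyme proteins of the complex, Aimp1, which acts as a scaffold, differed by 0.072 and Eef1e1 by -0.015 (limma adjusted p = 0.896 and 0.989); Aimp2 is not analysed here.

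Among mitochondrial enzymes, the largest difference was that of the prolyl enzyme gene Pars2, with 4.57, 4.26, 4.12, 4.75 and 4.41 in knock-out cells, against 4.53, 4.71, 4.71, 4.46 and 4.59 in wild-type cells. Knock-out array 4 gave the highest value of all 10, and arrays 2, 3 and 5 the lowest 3. On knock-out arrays 2 and 3 Pars2 lay below the gene median, and the level at which its values become background is not known. The difference was -0.17 ± 0.11 (SE; limma adjusted p = 0.843), and -0.10 without knock-out array 3. The tyrosyl enzyme gene Yars2 had values of 6.96, 6.79, 7.15, 6.91 and 6.80 in knock-out cells, against 6.95, 7.14, 7.17, 7.18 and 6.91 in wild-type cells, a difference of -0.15 ± 0.092 (SE). Mars2, the mitochondrial methionyl enzyme gene, had 5.30, 5.35, 4.92, 5.30 and 5.19 in knock-out cells, against 5.19, 5.12, 5.35, 5.65 and 5.49 in wild-type cells, a difference of -0.15 ± 0.11 (SE) that was -0.073 without knock-out array 3 and -0.076 without wild-type array 4. In Yars2 and Mars2 the groups overlapped (limma adjusted p = 0.842 and 0.861).

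The alanyl enzyme gene Aars2 had values of 5.35, 5.26, 5.46, 5.45 and 5.46 in knock-out cells, against 5.42, 5.38, 5.42, 5.37 and 5.25 in wild-type cells, a difference of 0.027 ± 0.072 (SE). The arginyl enzyme gene Rars2 differed as little, 0.027 ± 0.11 (SE), with a wider spread: 6.74, 6.65, 6.58, 6.12 and 6.49 in knock-out cells, against 6.53, 6.58, 6.33, 6.36 and 6.63 in wild-type cells. Both signs turned with single arrays left out. The glutamyl enzyme gene Ears2 had the widest spread within genotype of all members, a pooled SD of 0.21, with 4.89, 5.05, 4.77, 5.28 and 4.81 in knock-out cells, against 5.12, 4.79, 5.32, 4.89 and 5.16 in wild-type cells. High and low values fell in both genotypes, and the difference was -0.095 ± 0.12 (SE), or -0.029 without wild-type array 3. Wars2, the tryptophanyl enzyme gene, lay below the gene median of all 10 arrays, from 3.65 to 4.11 in knock-out cells and from 3.72 to 4.004 in wild-type cells, and the level at which these values become background is not known.

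The remaining mitochondrial genes, Cars2, Fars2, Hars2, Iars2, Lars2, Nars2, Sars2, Tars2 and Vars2, had differences from -0.12 for Sars2 to -0.050 for Hars2, all negative; without knock-out array 5, Hars2 came to 0.032 and Lars2 to 0.030. The second probe set of Nars2 gave -0.068, in the same direction as the -0.11 of the one used. Enzymes for the same amino acid in the 2 compartments could be set side by side in 15 pairs covering 14 amino acids, with Farsa and Farsb each paired with Fars2. In 11 pairs both genes had a lower mean in knock-out cells, in 2 only the cytosolic and in 2 only the mitochondrial gene. Across arrays, however, such partners did not vary together: the correlation of their deviations from the genotype means was below 0 in 8 of the 15 pairs and above 0.5 in 2, Iars with Iars2 (r = 0.63) and Yars with Yars2 (r = 0.55).

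**Figure D2:**
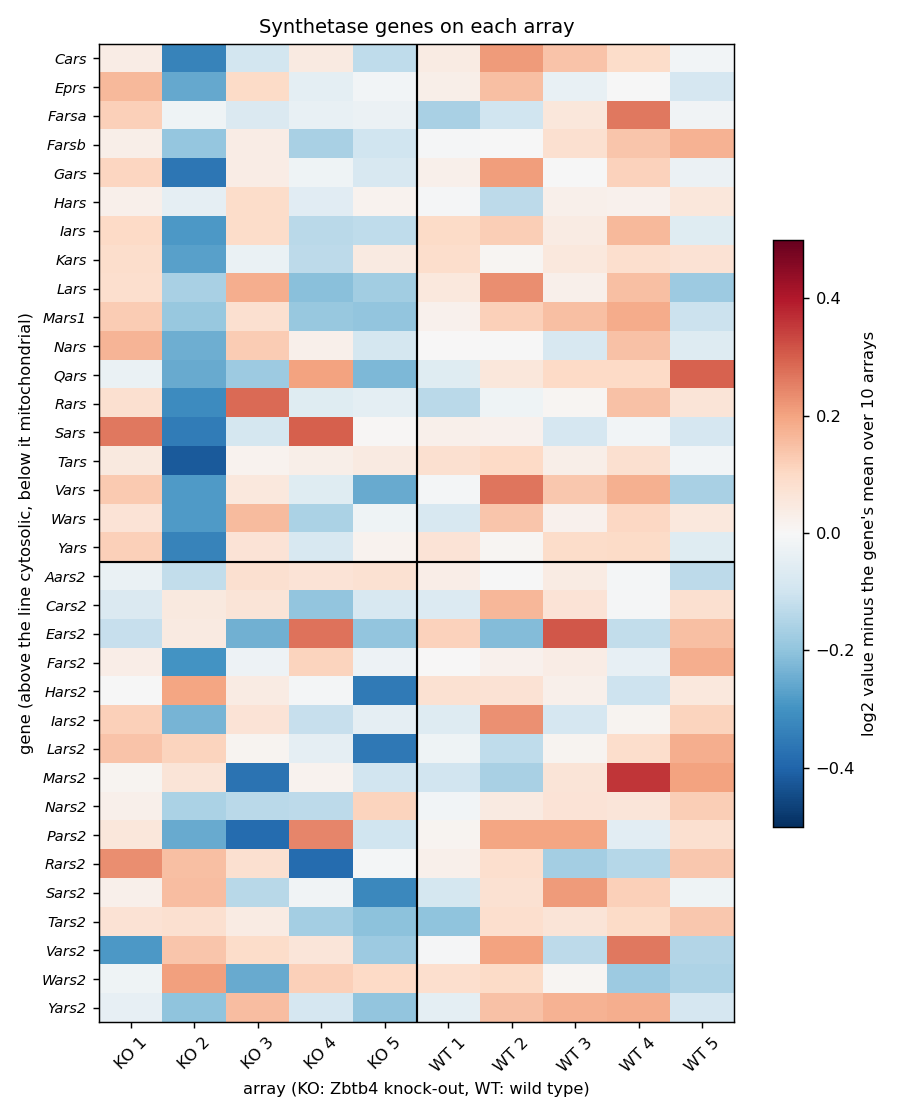
Log2 value of each of 34 synthetase genes (rows) on each array (columns, knock-out left of wild type) minus that gene's mean over the 10 arrays; red is above and blue below the mean, and the horizontal line parts 18 cytosolic from 16 mitochondrial genes. The column of knock-out array 2 is blue in all 18 cytosolic rows and red in 10 of the 16 mitochondrial ones.

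The cytosolic genes were set apart from the mitochondrial ones by how they varied between arrays. They were also brighter, with mean levels from 8.16 to 8.51 on the knock-out arrays and from 8.41 to 8.53 on the wild-type arrays. The mean levels of the mitochondrial genes ran from 5.41 to 5.53 and from 5.51 to 5.58. The part of signal level in the contrast was not tested. On knock-out array 2, all 18 cytosolic genes lay below the mean of the other 4 knock-out arrays, by a median of -0.28 and by as much as -0.47 in Sars and -0.46 in the threonyl enzyme gene Tars. Of the 16 mitochondrial genes, 6 lay below that mean, with a median of 0.13, and of all genes 52.3% did, with a median of -0.010. Some other lists were low there too. Below that mean lay 25 of 28 other Atf4 targets (median -0.40) and 10 of 12 stress response regulators (-0.22). So did 9 of 10 macrophage and leukocyte markers (-0.29), but only 5 of 19 proliferation genes (0.094). The lowest of the 10 values fell on knock-out array 2 in 14 of 18 cytosolic genes, in 4 of 16 mitochondrial genes and in 11.5% of all genes.

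The mean deviation of the cytosolic genes from their means was 0.096, -0.26, 0.048, -0.042 and -0.075 on the knock-out arrays, against 0.0040, 0.077, 0.042, 0.11 and -0.0090 on the wild-type arrays. Knock-out array 2 was the lowest of all and knock-out array 1 was higher than every wild-type array but array 4. The mean deviation of the mitochondrial genes was 0.0090, -0.0040, -0.057, -0.016 and -0.12 on the knock-out arrays, against -0.016, 0.057, 0.057, 0.032 and 0.056 on the wild-type arrays. Here knock-out array 5 was the lowest and array 2, at -0.0040, was among the higher of its genotype, and 4 of the 5 wild-type arrays lay above every knock-out array.

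**Figure D3:**
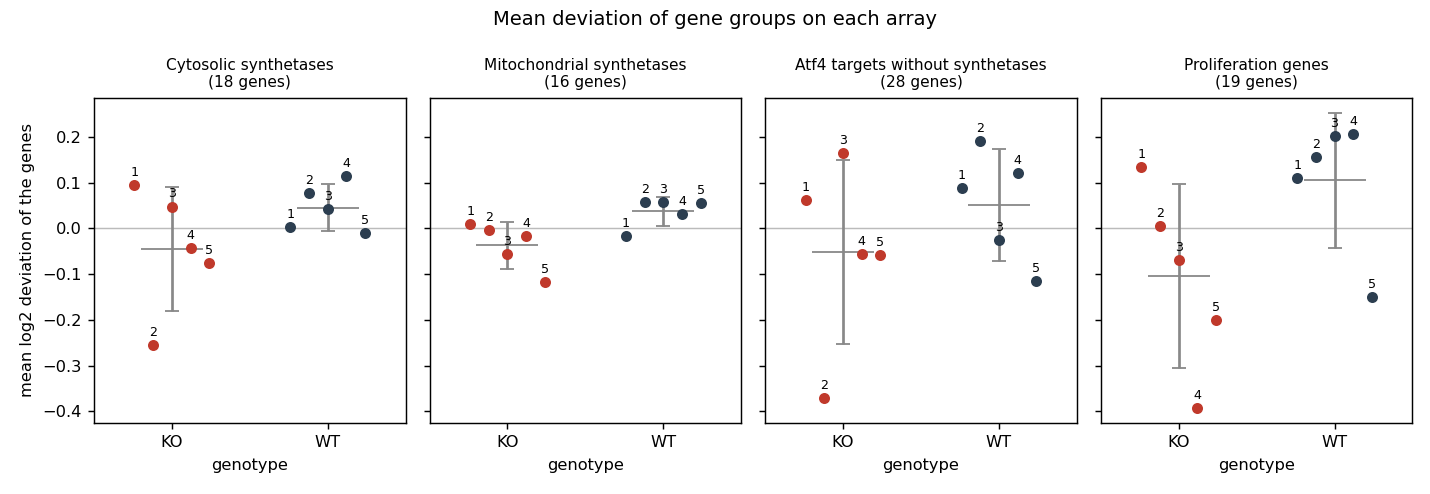
Mean log2 deviation of 4 groups of genes from their means over the 10 arrays; each point is 1 array, numbered by replicate, with knock-out left of wild type, and grey bars are the mean and SD of 5 arrays. Knock-out array 2 is lowest for cytosolic synthetases (-0.26) and Atf4 targets (-0.37) but not for mitochondrial synthetases (-0.0040) or proliferation genes (0.0050), for which knock-out array 4 is lowest (-0.39).

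The same contrast appeared in pairwise correlations of deviations from the genotype means, which are given as a description since all pairs share the same 10 arrays and their normalization. The 153 pairs of cytosolic genes had a median r of 0.58 and 94.8% were positive. The 120 pairs of mitochondrial genes had a median r of -0.01, pairs of one cytosolic and one mitochondrial gene 0.01, and all pairs of genes on the array 0.01. Without knock-out array 2 the median for cytosolic pairs was 0.34, and that for mitochondrial pairs 0.05. Other lists varied together too. Pairs of proliferation genes had a median r of 0.73, or 0.77 without that array, and pairs of the other Atf4 targets 0.51, or 0.40. The closest pairs of synthetase genes were Eprs with Gars (r = 0.95), Iars with Nars (0.91), Rars with Wars (0.91) and Eprs with Iars (0.90). Among cytosolic genes, Qars, Hars and Farsa had the lowest median r with the others, 0.09, 0.23 and 0.24. Among mitochondrial genes, Iars2 and Yars2 had the highest median r with the cytosolic ones, 0.55 each, and Wars2 the lowest, -0.43.

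**Figure D4:**
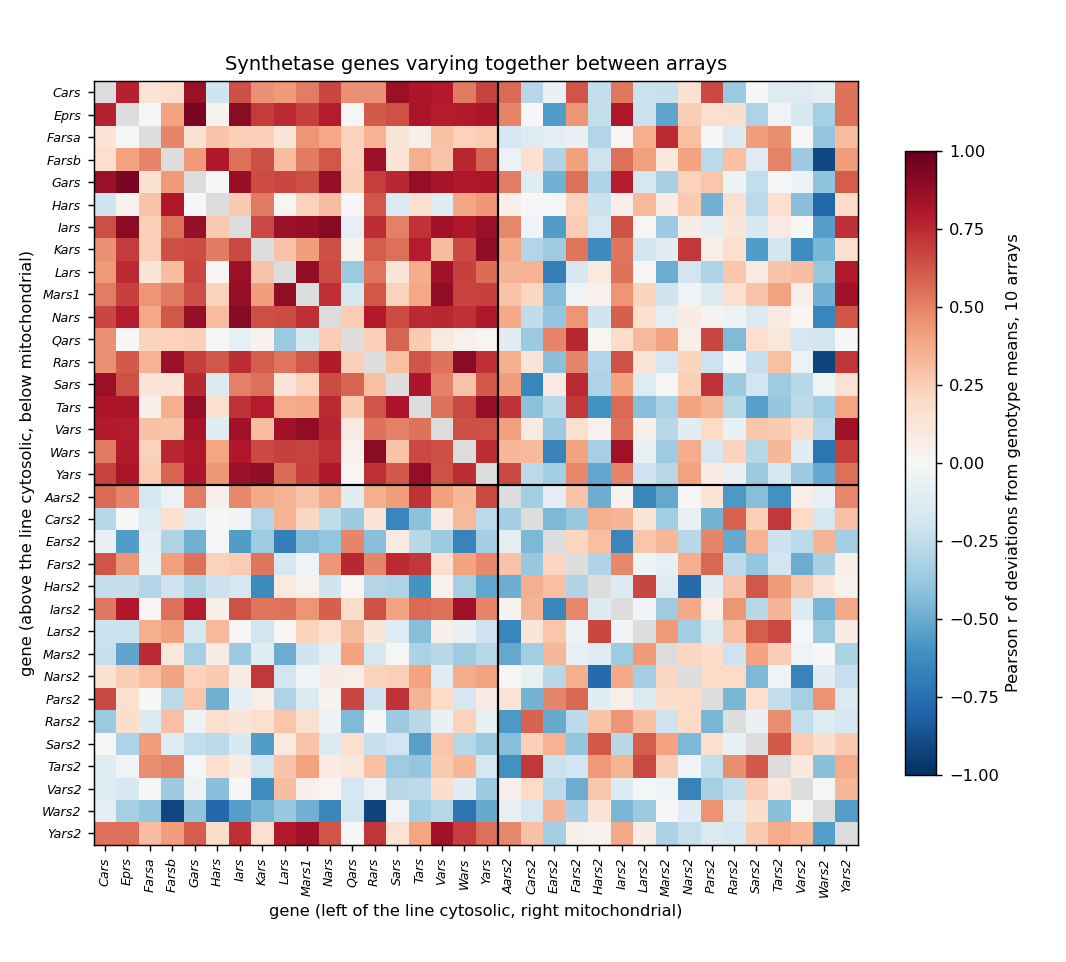
Pearson correlation across 10 arrays between the deviations of each pair of synthetase genes from their genotype means; lines part cytosolic from mitochondrial genes and the diagonal is left grey. The cytosolic block at the upper left is mostly red, with a median r of 0.58, while the mitochondrial block at the lower right is of both colours, with a median of -0.01.

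Cytosolic synthetases commonly listed as Atf4 targets were compared with 28 other Atf4 targets, genes of amino acid synthesis, import and stress signalling. Of these 28, 23 were lower and 5 higher by mean in knock-out cells (median -0.10), but without knock-out array 2 only 16 were lower (median -0.039). None passed over all genes, and 2 of the 28 had an unadjusted p under 0.05, both lower, a share near the 5.98% of all genes. Gpt2, an alanine aminotransferase gene, differed by -0.46, the serine synthesis gene Psat1 by -0.22 and Shmt2, of mitochondrial one-carbon metabolism, by -0.22 (limma adjusted p = 0.821, 0.83 and 0.833). Asns, the asparagine synthetase gene, had values of 9.02, 8.52, 9.19, 8.88 and 8.89 in knock-out cells, against 9.02, 9.22, 8.997, 9.32 and 8.97 in wild-type cells. Atf4 itself had 10.55, 10.16, 10.48, 10.42 and 10.39 in knock-out cells, against 10.51, 10.56, 10.37, 10.54 and 10.50 in wild-type cells. Knock-out array 2 was the lowest of all arrays for both genes, and for 19 of the 28 targets.

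Over 10 arrays, the mean deviation of the cytosolic synthetases from genotype means correlated with that of the 28 Atf4 targets with Pearson r of 0.88 and Spearman rho of 0.85. The r was 0.81 without the 2 arrays farthest from the median, knock-out arrays 1 and 2, and 0.71 without knock-out array 2 alone. The mitochondrial synthetases gave r of -0.23 and rho of -0.10 with the same targets, with r of -0.45 without the 2 farthest arrays and 0.00 without knock-out array 2. With the stress response regulators they gave r of 0.30, or 0.89 without knock-out array 2. With mitochondrial ribosomal protein genes these values were 0.55 and 0.87. Without the 2 farthest of the 10 arrays, r was 0.11 and -0.01 with these 2 lists. Of the 12 measured cytosolic genes commonly listed as Atf4 targets, 10 correlated with the mean of the 28 other targets above 0.7, led by Eprs, Gars and Iars at 0.93 each. Of the other 6 cytosolic genes 1 did, Rars, and of the 16 mitochondrial genes 0, against 2.98% of all genes. Without knock-out array 2 the numbers above 0.7 were 6 of 12, 0 of 6 and 0 of 16, against 3.62% of all genes; the 6 were Lars (0.96), Iars (0.89), Eprs (0.84), Gars (0.82), Vars (0.77) and Mars1 (0.72), while Sars came to -0.05.

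**Figure D5:**
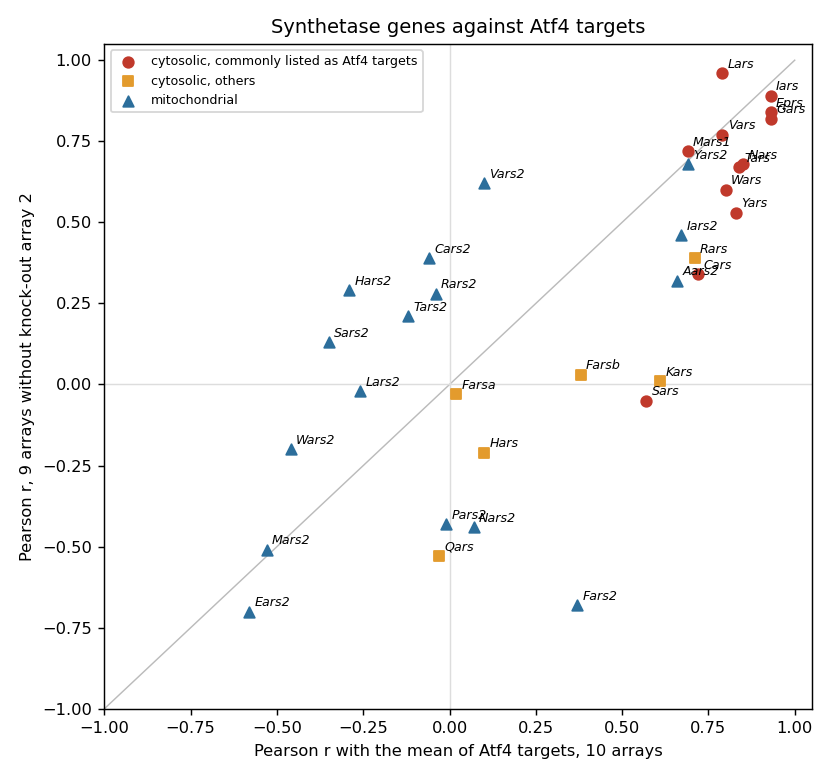
Pearson correlation of each synthetase gene with the mean of 28 Atf4 targets, as deviations from genotype means, over 10 arrays (horizontal) and over the 9 arrays without knock-out array 2 (vertical). Genes commonly listed as Atf4 targets lie at the upper right, led by Lars, Iars, Eprs and Gars, with Sars (-0.05) and Cars (0.34) lower on the vertical axis; mitochondrial genes are spread over both signs.

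Because these genes varied together, their promoters were searched for the core of the C/EBP-ATF response element, through which Atf4 acts, written TGATGNAA or, on the other strand, TTNCATCA. Promoter sequences, of 250 bases before and 50 after the start of transcription, are those of RefSeq on build GRCm38.p6 and were found for 25 of the 34 genes, 11 cytosolic and 14 mitochondrial. Entries were missing for Cars, Hars, Hars2, Lars, Nars, Pars2, Rars, Vars and Wars. The motif occurred in 4 of the 11 cytosolic genes, Gars, Iars, Tars and Yars, and in 0 of the 14 mitochondrial genes. All 4 were among the 7 cytosolic genes searched that are listed as Atf4 targets, and the others, Eprs, Mars1 and Sars, lacked it. Over all arrays, r with the mean of the other Atf4 targets was 0.93, 0.69 and 0.57 in Eprs, Mars1 and Sars. In Gars, Iars, Tars and Yars it was 0.93, 0.93, 0.84 and 0.83. Without knock-out array 2 the values were 0.84, 0.72 and -0.05, against 0.82, 0.89, 0.67 and 0.53. Whether the motif goes with these values was not tested. Of all genes with a promoter entry, 4.51% held the motif, and of those tested here 3.92%. Of the other Atf4 targets, 7 of 24 genes did. The 4 sites are shown with that of Asns, a well known Atf4 target, each in 30 bases read on the strand of the gene, with the motif in capitals.
Gars, chr6:55037960-55037989, plus strand: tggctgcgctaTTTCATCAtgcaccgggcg
Iars, chr13:49682126-49682155, plus strand: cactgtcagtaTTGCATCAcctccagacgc
Tars, chr15:11399655-11399684, minus strand: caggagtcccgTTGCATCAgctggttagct
Yars, chr4:129189895-129189924, plus strand: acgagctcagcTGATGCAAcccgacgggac
Asns, chr6:7693214-7693243, minus strand: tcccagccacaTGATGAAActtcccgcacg
The motif begins 30 bases before the start in Gars and 15 bases before it in Tars, and at base 8 of the transcript in Iars and base 4 in Yars. Iars and Tars hold the same 8 letters, and Yars holds them on the opposite strand. Gars and Asns share another form of the motif, also on opposite strands. A match of letters is a description and does not show that a factor binds there.

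For the threonyl enzymes, the 150 bases before the start are given for the cytosolic and the mitochondrial gene, since Tars stood apart on knock-out array 2 and Tars2 did not.
Tars, chr15:11399659-11399808, minus strand: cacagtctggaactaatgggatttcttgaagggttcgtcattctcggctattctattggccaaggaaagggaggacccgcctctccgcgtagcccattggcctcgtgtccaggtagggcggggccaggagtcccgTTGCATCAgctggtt
Tars2, chr3:95754978-95755127, minus strand: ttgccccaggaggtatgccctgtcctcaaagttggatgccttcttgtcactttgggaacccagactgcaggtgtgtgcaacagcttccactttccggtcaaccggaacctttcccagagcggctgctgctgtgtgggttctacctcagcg
Tars had values of 8.88, 8.42, 8.85, 8.87 and 8.88 in knock-out cells, against 8.92, 8.94, 8.87, 8.92 and 8.82 in wild-type cells, so that 9 arrays lay close together and knock-out array 2 lay below them. Tars2 had 5.83, 5.84, 5.80, 5.59 and 5.55 in knock-out cells, against 5.55, 5.84, 5.82, 5.85 and 5.89 in wild-type cells, with knock-out array 2 among the higher values. Relative to the mean of the other knock-out arrays, array 2 stood at -0.46 in Tars. In Gars, Iars and Yars, which also hold the motif, it stood at -0.37, -0.27 and -0.36. In Eprs, Mars1 and Sars, which do not, it stood at -0.30, -0.14 and -0.47, and in Fars2, also without it, at -0.32. Whether the motif goes with this drop was not tested. The Tars stretch holds 8 CpG and the Tars2 stretch 4. In the windows of 300 bases, cytosolic promoters held a median of 19 CpG and mitochondrial ones 18, against 13 for the genes tested.

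Markers of proliferation also differed in mean between genotypes, though none passed over all genes. All 19 were lower in mean in knock-out cells, by a median of -0.22, and 4 of them had an unadjusted p under 0.05, against 5.98% of all genes. Knock-out array 4 was the lowest of the 10 arrays for 18 of the 19, and without it the median was -0.14. Their mean level ran from 7.04 to 7.57 on the knock-out arrays and from 7.29 to 7.64 on the wild-type arrays. Over all 10 arrays the cytosolic synthetases correlated with them with r of 0.26 and rho of 0.32 (r of 0.53 without the 2 farthest arrays), and without knock-out array 2 with r of 0.80. Macrophage and leukocyte markers, of which 9 of 10 were higher in knock-out cells by mean (5 of 10 without knock-out array 3, where the median turned to -0.011), had mean levels from 4.14 to 5.61 on the knock-out arrays and from 4.46 to 4.86 on the wild-type arrays, and correlated with the cytosolic synthetases with r of 0.57 and rho of 0.75 (r of 0.77 without the 2 farthest arrays). These are among 11 such relations examined, and the part of either list in the synthetase values was not tested. In bulk samples, fewer cells of a type and less RNA per cell cannot be told apart.

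Other genes of tRNA charging had 8 of 10 lower means, with a median of -0.064 and none passing; without knock-out array 2 there were 5 of 10, with a median of -0.0088. Gatc, a subunit of the amidotransferase that completes glutaminyl-tRNA in mitochondria, had 6.64, 6.50, 6.59, 6.65 and 6.63 in knock-out cells, against 6.83, 6.90, 6.87, 6.67 and 6.85 in wild-type cells. All knock-out arrays lay below all wild-type arrays, and the difference was -0.22 ± 0.072 (SE; limma adjusted p = 0.821). Tarsl2, a second threonyl enzyme gene outside the naming rule, had 4.34, 4.17, 4.12, 3.89 and 4.04 in knock-out cells, against 4.51, 4.21, 4.62, 4.31 and 4.37 in wild-type cells, a difference of -0.29 ± 0.10 (SE; limma adjusted p = 0.821). Tarsl2 lay below the gene median on 6 of the 10 arrays, and the level at which its values become background is not known. Sepsecs, of selenocysteinyl-tRNA synthesis, differed by -0.14.

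Genes of tRNA processing and export had 19 of 25 lower means, with a median of -0.031. Without knock-out array 2 the count was 14 of 25 and the median -0.014, while the mean difference turned to 0.016 from its -0.0080 over all arrays; without wild-type array 5 they were 13 of 25 and -0.014. Thg1l adds the extra guanine by which histidyl-tRNA synthetases know their tRNA, and it had the smallest p-value of all genes tested. Its values were 6.15, 5.85, 5.97, 6.08 and 5.95 in knock-out cells, against 5.01, 5.13, 5.31, 5.28 and 5.58 in wild-type cells, and the groups did not overlap. The difference was 0.74 ± 0.11 (SE; limma adjusted p = 0.2). Leaving out wild-type array 5 gave an adjusted p of 0.0294, and leaving out any other array gave one between 0.308 and 0.834; with the replicate block it was 0.649. The labels give no strain, so an effect of the loss of Zbtb4 and a difference in genetic background cannot be told apart for Thg1l. The histidyl enzyme genes of the cytosol and of mitochondria had no like difference. Hars differed by 0.013, with a 95% interval from -0.14 to 0.16, and Hars2 by -0.050, with an interval from -0.26 to 0.16. Trit1 and Elp3, which modify tRNA bases, differed by -0.17 and -0.13.

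Of the regulators of the integrated stress response, a list that includes Atf4 itself, 9 of 12 had a lower mean, against 49.3% of all genes, with a median of -0.038. Without knock-out array 2, 6 of 12 did, with a median of -0.0040, and their mean difference came to 0.0070 in place of -0.026. Eif2ak4, the kinase Gcn2 that senses uncharged tRNA, differed by -0.17 (limma adjusted p = 0.83) and Eif2b3, a subunit of a translation initiation factor, by 0.10. Translation elongation factors had 7 of 10 lower means with a median of -0.045; the mitochondrial factors Gfm2, Gfm1 and Guf1 differed by -0.17, -0.14 and -0.21. The 71 mitochondrial ribosomal protein genes were divided, with 38 lower and 33 higher and a median of -0.0081 whose sign turned without knock-out array 2 (0.015) or 5 (0.014), and their members with the smallest p-values were Mrpl32 (-0.23), Mrpl1 (-0.20) and Mrps28 (0.14). None of the genes in these lists passed over all genes.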

How the data were processed

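The table used holds the authors' deposited log2 values of 41345 probe sets on 10 one-colour arrays, the scale judged from their range. The sources used here do not give the authors' summary, background or normalization steps; if array distributions were equalised, a shift of all transcripts together could not be seen. Probe sets with 1 symbol in the platform annotation (23521) were kept, and for each of 22180 genes the one with the highest mean was used. The genotype difference (knock-out minus wild type) of every gene came from limma 3.58.1 in R 4.3.3 (lmFit, eBayes; no filter, no covariate), with Benjamini-Hochberg adjustment over all genes and a threshold of 0.05. The exact test permutes 252 splits of the arrays. The number of arrays limits precision: the median standard error was 0.101. The fit was tested on simulated data. Same-numbered arrays correlated with r from -0.045 to 0.165, so the numbers were not taken as pairs.

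The members and gene lists were chosen with earlier results of these data known. Values of every array are given for members with an unadjusted p under 0.05 or no overlap, and for those with the 3 largest differences, the 2 smallest and the 2 largest SDs of each compartment, and up to 3 genes of smallest p are named from each other list, beside Zbtb4, Thg1l, Atf4 and Asns; Tars and Tars2 were added after their values were seen. Alternatives were quantile normalization, median centring, leaving out the dimmest 40% of genes, averaging or singly testing probe sets, trend with robust eBayes, array weights, a block for the replicate number, 3 Y-linked genes as a covariate and leaving out each array.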

Additional observations from a re-analysis of the deposited data

Results flagged for a closer look

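In 5 of 122 groups of 5 arrays, 1 array stood apart from the other 4 by Dixon's test at the 95% level; chance alone gives about 1 in 20. Tars was at 8.42 on knock-out array 2, with the rest of its genotype between 8.85 and 8.885. Farsa was at 7.34 on knock-out array 1, against 7.15 to 7.20 on the others of its genotype. Hars2 was at 5.49 on wild-type array 4, against 5.62 to 5.67, and Tars2 at 5.55 on wild-type array 1, against 5.82 to 5.89. Guf1, a mitochondrial translation factor gene, was at 6.56 on knock-out array 1, with its genotype's other arrays between 5.92 and 6.03.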

How the results depend on the processing

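No synthetase gene passed under any of the 19 alternatives, where the smallest adjusted p of any member was 0.624, and 24 of the 34 kept the sign of their difference in all of them. The number of genes passing over the whole array was 0 in every alternative but 1, with a range of 0 to 1 as arrays were left out: without wild-type array 5 it was 1, Thg1l, whose difference was then 0.82. At an unadjusted p under 0.05 it was 1326. With the replicate block the number passing was 0 (smallest adjusted p = 0.649). The median of the cytosolic genes lay between -0.14 and -0.044 as arrays were left out singly, and was -0.097 under quantile normalization, -0.13 with arrays centred on their medians and -0.11 with the replicate block; that of the mitochondrial genes lay between -0.10 and -0.055, and was -0.059, -0.10 and -0.082 in the same 3 settings. The median of the cytosolic genes was -0.11 for those commonly listed as Atf4 targets and -0.074 for the others.

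Of the named genes, only 10 synthetase genes and Eef1e1 turned sign, and the cause was not tested. As arrays were left out singly, the difference lay between -0.066 and 0.038 for Eprs, -0.059 and 0.047 for Farsa, -0.018 and 0.029 for Hars, -0.046 and 0.058 for Nars, -0.098 and 0.052 for Rars, -0.014 and 0.15 for Sars, -0.0017 and 0.061 for Aars2, -0.11 and 0.032 for Hars2, -0.095 and 0.030 for Lars2, -0.028 and 0.13 for Rars2, and -0.088 and 0.066 for Eef1e1. Leaving out knock-out array 2 gave the upper end for Eprs, Nars, Rars, Sars and Aars2. Quantile normalization brought Farsa to 0.014 and Eef1e1 to 0.0055, and centring brought Hars to -0.0046. The median standard error of the members was 0.092, so the number of arrays limits what could be called.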
